A study of Mus musculus with 24 samples.

Results

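Long copies of ERVK elements were followed in nascent RNA of mouse embryonic stem cells. They were chosen from the deposited repeat table as loci of the class LTR/ERVK whose end lies 2000 bases or more beyond their start. The table lists 5898 such loci among 4929385 repeat loci, and 4663 of them had a value other than 0 in at least 1 genotype and time, of 2172946 repeat loci with such a value. ERVK elements are endogenous retroviruses of class II, which in the mouse include the IAP and MusD/ETn groups. An intact copy has a long terminal repeat (LTR) at each end and an internal part coding for retroviral proteins, and a short ERVK entry is often a solitary LTR. In embryonic stem cells many of these copies are kept silent by KRAB zinc finger proteins, which recruit TRIM28 (KAP1) and the H3K9 methyltransferase SETDB1, and by DNA methylation. Copies of a recent insertion are nearly identical in sequence, and IAP RNA is a known carrier of N6-methyladenosine (m6A), the RNA mark that ALKBH5 removes. The loci carry class, family and position, so subfamilies such as IAP are not told apart here, and a length of 2000 bases does not show that a copy is intact.

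The cells were of the line E14TG2a, grown in serum medium with LIF, PD0325901 and CHIR99021. They were unmodified (WT), had lost Alkbh5 (KO), or carried Alkbh5 del-cIDR, a form without the C-terminal intrinsically disordered region, and all were fed 1 mM EU, a uridine analog built into new RNA, for 10, 20, 40 or 60 min. The EU-bearing RNA was pulled down by a click reaction and read beside Drosophila spike-in RNA, in 12 groups of 2 libraries, 24 in all. The labels name 1 line per genotype and do not say whether replicates came from separate cultures or on how many clones a mutant rests, so a p-value here covers only the spread of these libraries, which may be technical. KO and del-cIDR are both compared with the same 8 WT libraries. In bulk RNA, fewer cells of a type and less RNA per cell cannot be told apart.

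The deposited values are log2 ratios to the 10 min group, from which the whole reads of each library were solved. Libraries held 3635282 to 22076379 repeat reads and 6037 to 23382 spike-in reads. Reads over Alkbh5 were present in all groups, at 108, 106, 142 and 153 reads per 1000000 gene reads in WT (10, 20, 40 and 60 min), at 82.3, 67.3, 94.7 and 92.0 in KO and at 71.7, 97.2, 108 and 107 in del-cIDR. Reads summed over the whole gene check neither edit. All 8 embryonic stem cell markers, among them Pou5f1, Nanog and Zfp42, were read in all 24 libraries, and their summed level ran from 14535 to 91487 in WT, from 21916 to 91069 in KO and from 10445 to 96813 in del-cIDR (reads scaled to 11714 spike-in reads). The 5 fibroblast markers summed to 13.5 to 65.6 in WT, 21.8 to 81.5 in KO and 13.6 to 76.4 in del-cIDR, with Postn at a median of 0. Those of endoderm, 4 genes, summed to 10.4 to 114 in WT, 44.2 to 119 in KO and 24.4 to 165 in del-cIDR, with Afp at a median of 0. Trophoblast markers, 4 genes, summed to 152 to 834, 223 to 990 and 128 to 1032, nearly all from Tfap2c, with Cdx2 at a median of 0. The part of other cell types in the results below was not tested.

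The 4663 long ERVK loci together took 2260803 reads over the 24 libraries, 27832 to 162166 per library. Reads were uneven among them. The 10 loci with most reads held 18.0% and the 100 with most held 48.3%. The median locus had 99 reads in all, and 810 loci had 10 or fewer. A filter on low values (a mean level of at least 10, where level is reads scaled to 11714 spike-in reads, and reads in 6 libraries or more) left 1358 long ERVK loci, 29.1% of those with reads, against 14.1% of all repeat loci. These 1358 held 89.9% of the reads. The other 3305 are part of the sums but of no test.

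Lengths of the tested loci fell into narrow classes. Their median was 4843 bases, against 3270 for all long ERVK loci with reads. Between 3200 and 3299 bases lay 172 of the 1358, and 372 lay between 6300 and 6499. The length of 3270 bases alone was shared by 29 loci and 3276 by 23. How the authors treated reads that fit several places is not given in the sources used here, so the reads of copies with the same length and similar sequence may be shared among them.

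As a share of all repeat reads, long ERVK RNA was lower in KO than in WT at each labelling time, and in del-cIDR it was close to WT from 40 min on. The WT libraries ran from 0.571 to 0.809% with a median of 0.710%, those of KO from 0.457 to 0.632% with a median of 0.564%, and those of del-cIDR from 0.671 to 0.824% with a median of 0.741%. At 10 min the shares were 0.650 ± 0.069% in WT, 0.524 ± 0.082% in KO and 0.774 ± 0.009% in del-cIDR (SD, n = 2 here and below). At 20 min they were 0.577 ± 0.009%, 0.502 ± 0.063% and 0.678 ± 0.011%. At 40 min WT had 0.724 ± 0.005%, KO 0.564 ± 0.002% and del-cIDR 0.728 ± 0.011%, and at 60 min the shares were 0.801 ± 0.012%, 0.614 ± 0.025% and 0.785 ± 0.055%. Both KO libraries lay below both WT libraries at every time, and both del-cIDR libraries above both WT libraries at 10 and 20 min. The del-cIDR 10 min libraries had the fewest repeat reads of all, 4266043 and 3635282. At 10 min library B had fewer reads than A in each genotype. Its share was higher than that of A in WT (0.699 against 0.601%) and KO (0.581 against 0.466%), and lower in del-cIDR (0.768 against 0.781%). The part of depth in these differences was not tested. Averaged over the times, the log2 difference of the share was −0.32 for KO and 0.12 for del-cIDR against WT, beside an SD between libraries of a group of 0.10. Per spike-in read these differences were −0.013 and 0.26, beside an SD of 0.32. The KO difference is thus one of share among repeat reads, and per spike-in read both differences were smaller than the SD between libraries of a group. That SD is of single libraries, while the differences are means over the times, and no test was run on them.

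**Figure D1:**
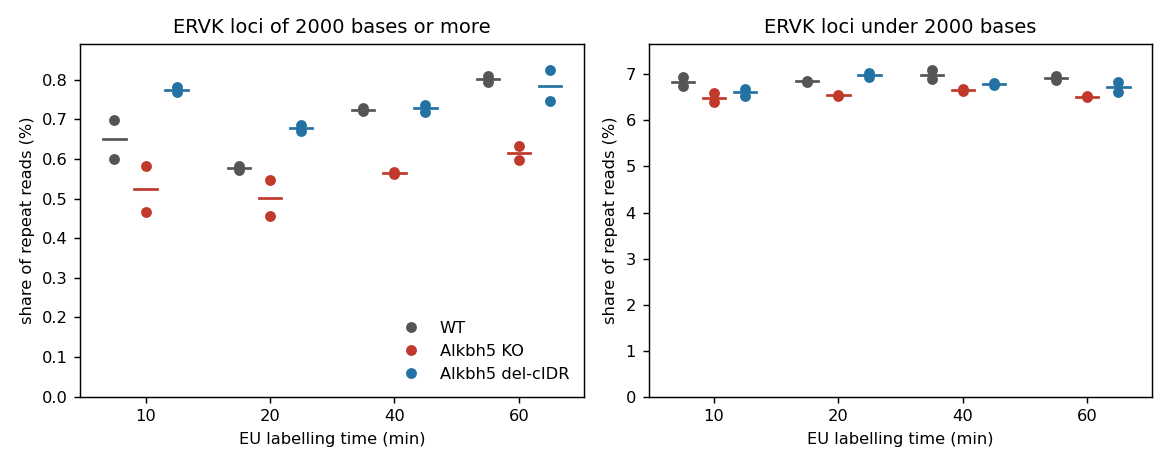
Share of repeat reads (%) in ERVK loci of 2000 bases or more (left) and in shorter ERVK loci (right) by EU labelling time, 1 point per library and a line at the mean of 2, for WT, Alkbh5 KO and Alkbh5 del-cIDR. The KO libraries lie from 0.457 to 0.632% on the left, below both WT libraries of the same time.

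Shorter ERVK loci moved less on this scale. Their share was 6.74 to 7.09% in WT, 6.39 to 6.68% in KO and 6.54 to 7.04% in del-cIDR, and their log2 differences were −0.08 for KO and −0.03 for del-cIDR against WT. Long ERVL loci, of the class III retroviruses, differed by 0.20 in KO and by −0.58 in del-cIDR as means over the times. The del-cIDR difference was not steady. At 10 min the share was 0.563% in del-cIDR and 0.505% in WT, whose libraries had 0.364 and 0.646%. At 20, 40 and 60 min it was 0.218, 0.199 and 0.213% in del-cIDR, against 0.364, 0.379 and 0.393% in WT.

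Single loci were then fitted with limma on log2(level + 1), with each library set to its median tested repeat locus, a scale that understates the change of low loci. A difference is the mean over the 4 times, with 8 libraries per genotype, and is given with its standard error. P-values were adjusted by Benjamini-Hochberg over all 306031 repeat loci tested, with a threshold of 0.05. Scaled to the spike-in as deposited, the median locus lay 0.32 higher in KO than in WT and 0.16 higher in del-cIDR, and all differences below are relative to it. This shift changed with time, at 0.75, 0.29, −0.07 and 0.31 in KO and at −0.60, 0.74, 0.39 and 0.11 in del-cIDR from the shortest to the longest labelling.

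Between KO and WT, 198 of the 1358 long ERVK loci were lower (14.6%) and 16 were higher (1.18%). Among all repeat loci tested 2.99% were lower and 1.86% higher. The median difference of the long ERVK loci was −0.28, against −0.03 over all loci, and 1010 of them lay below 0. Of the loci called, 118 fell and 5 rose by more than 2-fold, and 200 of the 214 had the same sign at all 4 times. A call on the mean over these times favours loci of 1 sign, so this agreement is no separate support. The matching shares among all called repeat loci are not given here. From the shortest to the longest labelling the median difference was −0.40, −0.15, −0.26 and −0.33. On the deposited spike-in scale 96 were lower and 32 higher, and the median turned to 0.04. For counts under another scale, filter, length or set of libraries, here and below, the share over all repeat loci is not given. Such counts do not show whether the long ERVK loci differ from all loci in that setting. The few loci called higher depended on single libraries: leaving out 1 library gave 7 to 21 of them, with 7 to 10 in the absence of WT 10 min B, WT 40 min B, WT 60 min A, KO 40 min A or B, or KO 60 min B, and without the filter on low levels there were 4. The spread between libraries was shared by all 12 groups in this fit.

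Between del-cIDR and WT fewer long ERVK loci changed. There were 46 higher (3.39%, against 0.638% of all loci tested) and 51 lower (3.76%, against 1.69%). The median difference was 0.15, against −0.02 over all loci. In time order it was 0.36, 0.14, −0.00 and 0.03, where the first value rests on the del-cIDR libraries with the fewest reads. Of the 97 loci called, 34 rose and 31 fell by more than 2-fold, and 89 had the same sign at all 4 times, which the call on the mean again favours. On the deposited spike-in scale 40 were higher and 18 lower, and of 2415 tested ERVK loci of 1000 bases or more 68 were higher and 128 lower.

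The difference between the mutants was tested directly. Relative to KO, 353 long ERVK loci were higher in del-cIDR (26.0%) and 78 were lower (5.74%), against 5.78 and 6.77% of all loci tested. Their median difference was 0.46, against 0.03 over all loci. On the deposited spike-in scale 192 were higher and 79 lower.

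**Figure D2:**
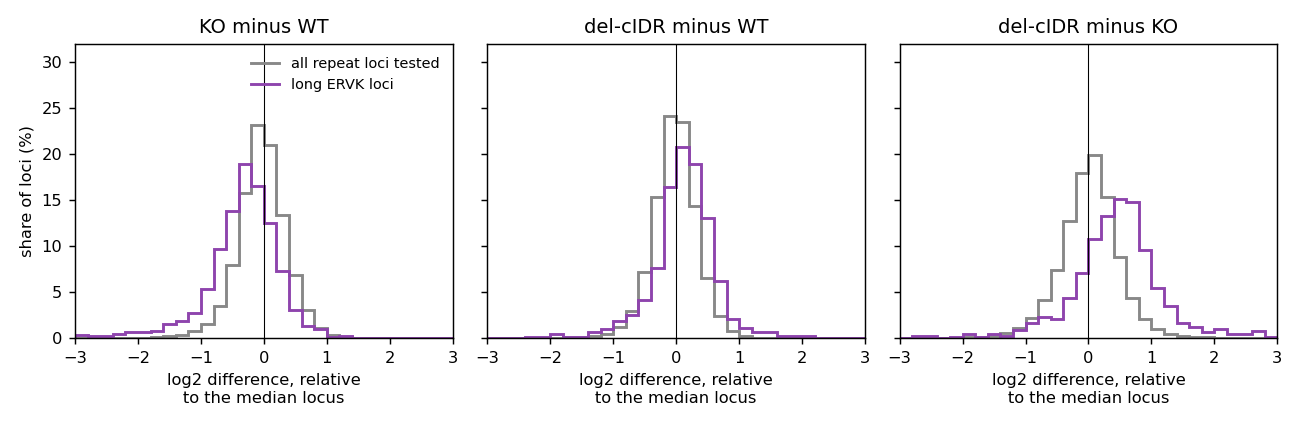
Share of loci (%) by log2 difference relative to the median locus, in steps of 0.2, for the 1358 long ERVK loci and all 306031 repeat loci tested, in 3 genotype comparisons. The long ERVK loci are shifted to a median of −0.28 for KO minus WT, 0.15 for del-cIDR minus WT and 0.46 for del-cIDR minus KO.

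Against other repeats by the same fit, 1322 of 17099 ERVK loci under 2000 bases were lower in KO (7.73%) and 368 were higher (2.15%), with a median of −0.07. In del-cIDR 583 of them were lower and 178 higher. Of 770 long ERVL loci 5 were lower and 5 higher in KO, with a median of 0.21, while 246 were lower and 1 higher in del-cIDR, with a median of −0.77. Whether the long ERVK loci differ from these sets was not tested.

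Rises and falls of single loci are ranked below among called loci whose mean level reached 50 and whose sign was the same at all 4 times; loci of lower level include larger differences in both directions. The falls named in KO were between −3.65 and −2.87. At chr10:41286535-41290675 (GRCm39, 1-based, as all positions here; 4140 bases) the RNA level in WT was 27.4 and 20.4 reads per 1000000 repeat reads (RPM) in the 10 min libraries, 25.4 and 25 in those of 20 min, 44.2 and 39.6 in those of 40 min, and 53.6 and 53.8 in those of 60 min. In KO the same locus had 3.02 and 1.72, 2.45 and 1.25, 3.45 and 2.92, and 3.75 and 4.09 RPM. In del-cIDR it had 18.1 and 16.8, 25.8 and 26.5, 28.7 and 24.7, and 32.9 and 40.4 RPM. All 8 KO libraries lay below all WT libraries, and those of del-cIDR overlapped with WT. The difference was −3.65 ± 0.16 in KO (limma, adjusted p = 2.29e-09) and −0.42 ± 0.16 in del-cIDR (limma, adjusted p = 0.206).

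Another ERVK locus, chr17:80872449-80875243 (2794 bases), ran from 34.9 to 58.8 RPM in WT (median 43.1), from 4.04 to 6.97 in KO (median 5.65) and from 35.8 to 75.6 in del-cIDR (median 54.2). Again the KO libraries did not overlap with WT. The difference was −3.0 ± 0.13 (limma, adjusted p = 2.29e-09). In del-cIDR both libraries lay above both WT libraries at all 4 times, with a difference of 0.26 ± 0.13 that did not pass (limma, adjusted p = 0.358).

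On chromosome 5 the neighbouring entries chr5:104885694-104888204 and chr5:104888203-104890831, which abut and so may be parts of 1 copy, fell together. The first had 1.36 to 8.52 RPM in WT (median 5.82), 0 to 1.3 in KO (median 0.788) and 1.10 to 6.72 in del-cIDR (median 5.24). The second had 4.14 to 9.42, 0 to 1.88 and 3.31 to 7.77 RPM, with medians of 5.97, 1.01 and 5.91. KO did not overlap with WT in either, but at the first locus KO 10 min library B (1.03 RPM, 6 reads) lay close to WT 10 min library B (1.36 RPM, 6 reads). Their differences were −2.96 ± 0.37 and −2.88 ± 0.34 in KO (limma, adjusted p = 0.000136 and 9.18e-05).

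On chromosome 7, chr7:26105908-26109027 fell in both mutants, to unlike degrees. It ran from 6.60 to 13.1 RPM in WT, from 0.689 to 2.04 in KO and from 4.48 to 6.82 in del-cIDR, with medians of 11.1, 1.41 and 5.55. KO lay below WT without overlap, and del-cIDR lay between, overlapping with WT at the edge of its range. The differences were −2.87 ± 0.15 in KO and −0.93 ± 0.15 in del-cIDR, and del-cIDR lay 1.94 above KO (limma, adjusted p = 9.98e-09, 0.00246 and 3.59e-07). Close by, chr7:26087008-26091250 behaved alike, at 16.0 to 31.5 RPM in WT, 2.19 to 5.42 in KO and 1.66 to 14.2 in del-cIDR. Its difference in del-cIDR was −1.27 ± 0.25 (limma, adjusted p = 0.0109) and in KO −2.58 ± 0.25 (limma, adjusted p = 1.04e-05). The del-cIDR call did not hold on the deposited scale, where the value was −1.11, nor without the filter on low levels (limma, adjusted p from 5.61e-06 to 0.0689 over 31 alternatives).

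Rises in KO were fewer, and those named were smaller. The largest at a level of at least 50 was chr6:60334384-60336848, from 0.454 to 7.05 RPM in WT and 2.19 to 10.7 in KO, at 1.10 ± 0.22 (limma, adjusted p = 0.00702). Its neighbour chr6:60324196-60326957 was at 0.90 ± 0.23 (limma, adjusted p = 0.0341), and chr6:95454023-95456373 at 0.86 ± 0.21 (limma, adjusted p = 0.0234). At chrX:138218923-138222276 the level was 1.70 to 2.95 RPM in WT and 2.80 to 6.82 in KO, at 0.87 ± 0.16 (limma, adjusted p = 0.0035). The groups of all these overlapped over the 4 times. The calls of chr6:60324196-60326957 and chr6:95454023-95456373 were lost in 14 and 5 of 31 alternatives, with adjusted p of 0.000565 to 0.128 and 0.000519 to 0.107 (limma).

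At chr10:46690704-46694127 the mutants lay on opposite sides of WT. In WT the locus had, in time order, 3.01 and 2.27, 2.93 and 3.13, 8.17 and 6.86, and 9.19 and 10.7 RPM. KO had 7.18 and 5.85, 7.13 and 4.39, 14.3 and 13.9, and 17.9 and 18.5 RPM. In del-cIDR it had 0.940 and 0, 2.02 and 1.13, 3.04 and 2.18, and 2.71 and 3.15 RPM. At each time both KO libraries were above and both del-cIDR libraries below both of WT. The del-cIDR difference was −1.64 ± 0.24 (limma, adjusted p = 0.00108), and that between the mutants −2.59 (limma, adjusted p = 2.53e-06). The KO difference of 0.95 ± 0.24 passed (limma, adjusted p = 0.0296), but not in 14 of 31 alternatives, over which the adjusted p ran from 7.85e-06 to 0.115.

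Among these loci, with a level of at least 50, the largest falls in del-cIDR were at chr5:15106225-15111168, at −1.93 ± 0.27 (limma, adjusted p = 0.000648), and chr16:19022462-19026819, at −1.80 ± 0.15 (limma, adjusted p = 9.75e-06). The first ran from 3.6 to 6.94 RPM in WT, 5.31 to 9.09 in KO and 0.276 to 2.35 in del-cIDR. The second ran from 6.21 to 13.9, 2.75 to 7.86 and 1.10 to 4.13 RPM, and was lower in KO too, at −0.97 ± 0.15 (limma, adjusted p = 0.00131). In both loci the del-cIDR libraries lay below WT without overlap.

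At chr3:96222135-96227079 (4944 bases) the del-cIDR level was farthest from WT, as a ratio, at 10 min. WT had 33.0 and 29.3, 43.1 and 45.7, 80.5 and 75.4, and 83.4 and 86.7 RPM from the shortest to the longest labelling. In del-cIDR it had 6.58 and 3.31, 22.9 and 20.6, 32.2 and 30.9, and 60.3 and 57.3 RPM, below WT at every time. The KO libraries had 50.6 to 81.0 RPM. The difference in del-cIDR was −1.40 ± 0.14 (limma, adjusted p = 4.62e-05), and in KO 0.23 ± 0.14 (limma, adjusted p = 0.405). Its slope with time was not called different between del-cIDR and WT.

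Of the 5 largest rises in del-cIDR at a level of at least 50, 3 were at loci of nearly equal length. At chr3:51009538-51012256 (2718 bases) the WT level was 2.01 and 2.04, 2.57 and 2.32, 4.18 and 3.94, and 3.53 and 3.29 RPM in time order. The del-cIDR libraries had 5.64 and 4.97, 9.50 and 9.48, 8.80 and 8.84, and 6.99 and 11.3 RPM, and those of KO 0.718 to 1.82 RPM. All del-cIDR libraries were above and all KO libraries below those of WT. The differences were 1.41 ± 0.14 in del-cIDR (limma, adjusted p = 5.6e-05) and −1.24 ± 0.14 in KO (limma, adjusted p = 6.55e-05). At chr3:70480110-70482825 (2715 bases) WT had 0.908 to 5.47 RPM and del-cIDR 7.99 to 15.7, a difference of 1.94 ± 0.20 (limma, adjusted p = 7.25e-05), while KO had 1.72 to 4.80 RPM. At chr4:119784017-119786732 (2715 bases) WT had 1.13 to 5.09, KO 0.689 to 1.73 and del-cIDR 2.48 to 12.4 RPM, and the del-cIDR difference was 1.44 ± 0.23 (limma, adjusted p = 0.00188).

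The other rises were at chr1:98518256-98522015 (3759 bases), at 1.96 ± 0.15 (limma, adjusted p = 5.44e-06), and at chrX:9195466-9198358 (2892 bases), at 1.49 ± 0.23 (limma, adjusted p = 0.00168). On chromosome 1 the locus had 1.34 to 3.94 RPM in WT, 0.714 to 2.14 in KO and 4.97 to 11.6 in del-cIDR, the latter above WT without overlap. On the X chromosome the ranges were 1.91 to 4.78, 1.25 to 3.44 and 3.86 to 20.4 RPM, and del-cIDR overlapped with WT.

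Because of these equal lengths, the length classes were looked at after the values were seen, and no test is given. Of the 1358 tested loci, 25 were 2700 to 2729 bases long, on many chromosomes. In del-cIDR 23 of the 25 lay above WT, 16 were called higher and 1 lower, with a median difference of 1.41 and a range from −0.70 to 2.50. These 16 are part of the 46 long ERVK loci called higher in del-cIDR. In KO the same loci had a median difference of −0.38, with 1 called higher and 4 lower. Between del-cIDR and KO the median was 1.93, and 21 were called higher. Summed over all 108 loci of this length with reads, filter passed or not, WT libraries had 84.0 to 125 RPM with a median of 109, KO libraries 65.6 to 113 with a median of 96.8, and del-cIDR libraries 151 to 223 with a median of 202. All 8 del-cIDR libraries lay above all WT and KO libraries. This sum holds the 3 named loci whose rises led to the class and the 16 called higher, so it is no separate support for the rise. Without the 3 loci with most reads the ranges were 32.7 to 55.2 in WT, 23.6 to 43.1 in KO and 80.6 to 133 RPM in del-cIDR. Those left out were picked by their reads and are not the same 3 as the named loci. The remaining sum still holds loci called higher, so it is no separate support either.

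**Figure D3:**
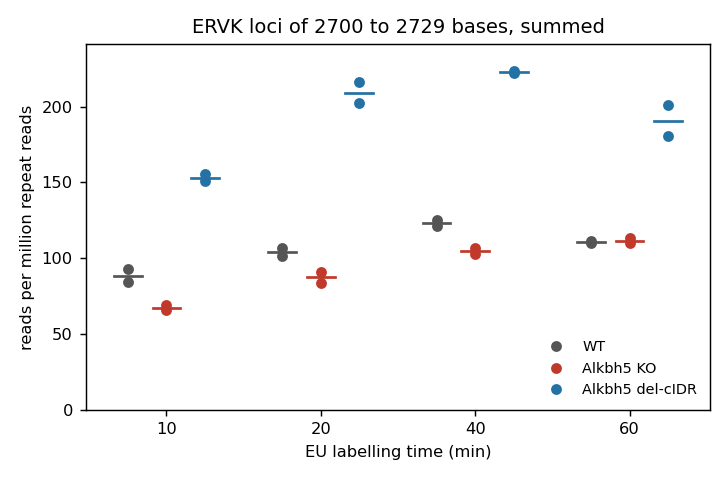
Summed RPM (reads per 1000000 repeat reads) of the 108 ERVK loci of 2700 to 2729 bases by EU labelling time, 1 point per library and a line at the mean of 2. The del-cIDR libraries lie from 151 to 223, above the 84.0 to 125 of WT and the 65.6 to 113 of KO. The class was chosen after del-cIDR rises of some of its loci were seen.

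In classes of 100 bases with at least 10 tested loci, 29 in all, the median del-cIDR difference ran from −0.26 to 0.64, the highest being that of 2700 to 2799 bases. The next highest was 0.58, in the 12 loci of 7500 to 7599 bases, of which 4 were called higher and 1 lower. The 172 loci of 3200 to 3299 bases had a median of 0.37, with 3 called higher and 1 lower. For KO 26 of the 29 class medians were below 0. Among loci of 4800 to 4899 bases 26 of 91 were called lower in KO and none higher, with a median of −0.58, and their median in del-cIDR was 0.02 with 1 called higher. The 372 loci of 6300 to 6499 bases were seldom called in KO. There the median was −0.17 with 5 called lower of 143 between 6300 and 6399 bases, and −0.23 with 10 lower and 1 higher of 229 between 6400 and 6499. Levels were low at such lengths, with a median of 14.5 from 6000 to 7000 bases, against 35.0 from 4000 to 5000. Among loci with a level of at least 50 the KO medians of these 2 ranges were −0.35 (n = 58) and −0.33 (n = 75).

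**Figure D4:**
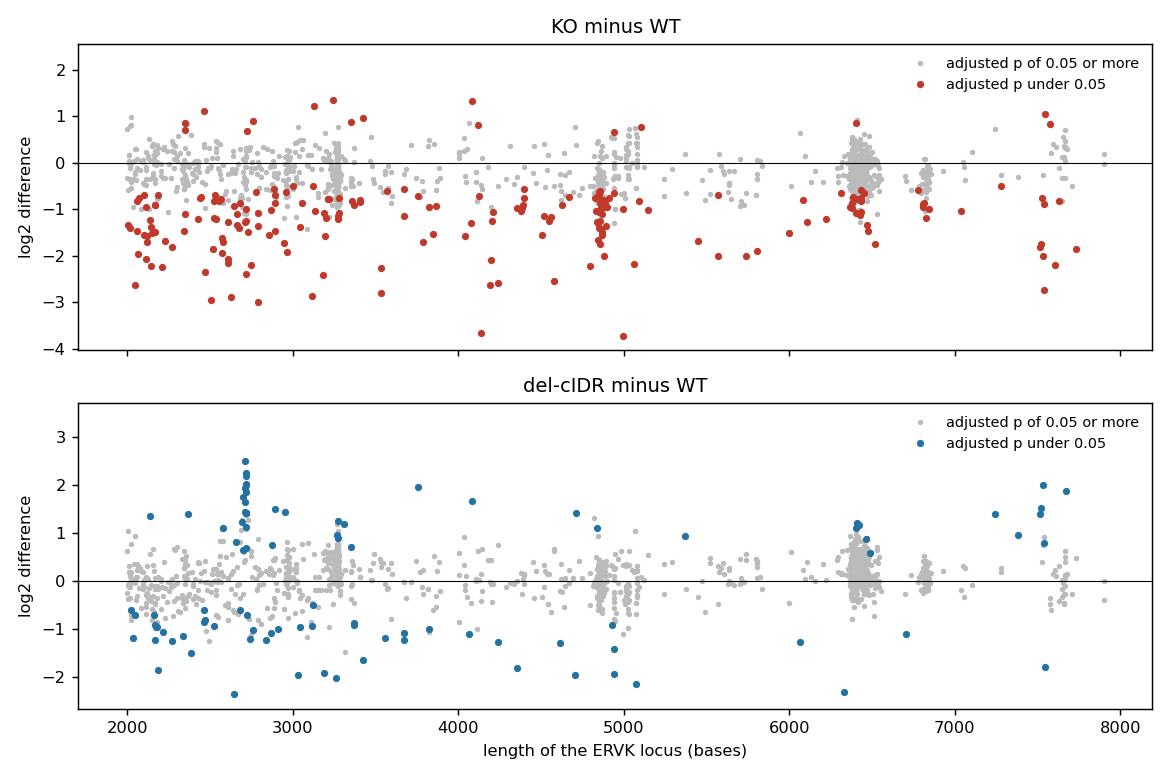
Log2 difference relative to the median locus by length of the ERVK locus in bases, up to 8000, for KO minus WT (top) and del-cIDR minus WT (bottom); 1 point per tested locus, coloured where the adjusted p of limma was under 0.05. The column of called del-cIDR rises near 2700 bases holds 16 loci, and the column of called KO falls at 4800 to 4899 bases holds 26.

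The KO difference was much the same at all levels. In loci with a level of 10 to 20 the KO median was −0.27 (n = 701), at 20 to 50 it was −0.31 (n = 335), at 50 to 100 it was −0.28 (n = 144) at 100 to 300 it was −0.28 (n = 126) and at 300 or more −0.28 (n = 52). The del-cIDR median was 0.22, 0.11, 0.05, 0.02 and 0.06 in the same classes.

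No chromosome stood apart in the sign of the KO difference. The median of the long ERVK loci was below 0, and below that of all loci, on all 21 chromosomes, from −0.66 on Y (10 loci) to −0.12 on chromosome 8 (61 loci). On chromosomes 6 and 8 all repeat loci together lay higher in KO, at medians of 0.37 and 0.29, and the long ERVK loci there were at −0.21 and −0.12. Chromosome 6 held 6 of the 16 loci called higher in KO. Without chromosomes 4, 6, 8, 11 and X, 160 of 1007 long ERVK loci were lower and 5 higher, with a median of −0.31. For del-cIDR minus KO the median was above 0 on all 21 chromosomes, from 0.21 to 0.73.

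The RNA around the copies was set beside them, a measure added after the data were seen. For each tested locus, repeat loci outside the LTR classes that lie 1 to 10 kb off either end were summed, and 638 long ERVK loci had such flanks at a level of at least 10. In the 116 of these called lower in KO the median KO difference was −1.16 for the ERVK locus and −0.81 for its flanks, and in 75 the flanks were below −0.5. In the 12 called higher it was 0.86 for the locus and 0.65 for the flanks, and in the 510 not called −0.14 and −0.08. For del-cIDR minus WT the 40 called lower had −1.18 and flanks of −0.93, and the 19 called higher had 1.11 and flanks of 0.61. Over the 638 loci, which share the 24 libraries and their depth with their flanks, the correlation of locus and flank across loci was 0.69 for KO (Pearson's r; Spearman's rho 0.55) and 0.65 for del-cIDR (rho 0.53). Thus changed copies often lay in stretches whose other repeats changed in the same direction. Whether such RNA starts in the copy or runs through it was not tested.

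**Figure D5:**
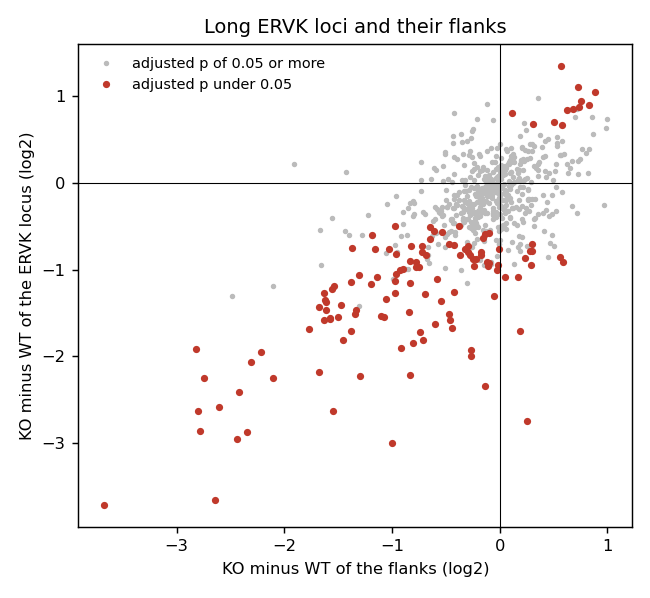
KO minus WT log2 difference of the 638 long ERVK loci with a flank level of at least 10 (vertical) against that of the repeat loci 1 to 10 kb off either end (horizontal), coloured where the adjusted p of limma was under 0.05. Most points of called loci lie in the lower left, with medians of −1.16 for the locus and −0.81 for the flanks among the 116 called lower.

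Single copies differed in this. The flanks of chr10:41286535-41290675 were at −2.64 in KO and those of chr7:26105908-26109027 at −2.78, nearly as low as the loci. The flanks of chr17:80872449-80875243 were at −1.0, beside −3.0 for the locus. The del-cIDR rises at chr3:51009538-51012256, chr3:70480110-70482825 and chr4:119784017-119786732 had flanks with levels of 2.03, 1.12 and 5.18, against mean levels of 68.9, 111 and 80.3 in the loci. These flanks, below the level of 10 used above, were at 0.84, 0.93 and 0.65 in del-cIDR. Such low flanks say little, as the scaling of libraries alone gave −0.16 at chr16:3212288-3214817, with a flank level of 0. Of the other named del-cIDR rises, chr1:98518256-98522015 had flanks at −0.28 (level 4.41) and chrX:9195466-9198358 at 1.82 (level 18.8). The del-cIDR fall at chr3:96222135-96227079 had flanks at −0.14 (level 90.5), and the other named falls had flanks from −1.45 to −1.05.

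Neighbouring copies were alike too. Of the 198 loci called lower in KO, 54 had another tested long ERVK locus within 100 kb, and that neighbour was called lower in 32 and higher in 0 of these cases, with a median of −0.98. For the 282 tested loci with such a neighbour it was called lower in 53 and higher in 8, with a median of −0.25. Such neighbours can be parts of 1 copy.

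Of the 6 loci with the highest level per kb, 2 fell in KO and 4 did not pass, and none passed in del-cIDR. The highest level per kb was 631 at chr9:7800760-7804869, where the mean RPM at 10, 20, 40 and 60 min was 141, 114, 183 and 240 in WT, 128, 109, 153 and 198 in KO and 147, 149, 175 and 219 in del-cIDR. Its differences did not pass, at −0.20 ± 0.12 in KO and 0.04 ± 0.12 in del-cIDR (limma, adjusted p = 0.412 and 0.914). The locus with most RNA in all, chr5:60106612-60113433 (6821 bases, 530 per kb), was at 0.08 ± 0.12 and 0.07 ± 0.12 (limma, adjusted p = 0.769 and 0.829). At chr6:64632805-64637260 (593 per kb) the differences were −0.23 ± 0.12 and 0.39 ± 0.12 (limma, adjusted p = 0.337 and 0.114), and del-cIDR lay 0.62 above KO (limma, adjusted p = 0.00317). In these loci and in chr9:59277789-59282849 the split of a group's reads between its libraries was unclear, so means are given and their spread is not well known; 7 of the 1358 loci were so.

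By contrast chr9:59277789-59282849 (371 per kb) had mean RPM of 111, 163, 175 and 138 in WT, 24.2, 30.9, 45.1 and 32.3 in KO and 105, 204, 234 and 161 in del-cIDR at 10, 20, 40 and 60 min. Its differences were −2.18 ± 0.12 in KO (limma, adjusted p = 3.2e-08) and 0.20 ± 0.12 in del-cIDR (limma, adjusted p = 0.479). Its flanks were at −1.68 in KO. At chr6:141542671-141544774 (309 per kb) WT had 35.3 to 72.6 RPM, KO 13.5 to 23.7 and del-cIDR 34.8 to 71.2, so that KO lay apart from both. The KO difference was −1.55 ± 0.13 (limma, adjusted p = 2.24e-06). Flanks there were at −1.50 and at a level above that of the locus, 1746 against 650. The sixth, chr15:55735182-55738465 (306 per kb), was at −0.21 ± 0.15 and −0.06 ± 0.15 (limma, adjusted p = 0.48 and 0.904).

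Labelling time was the other factor. All else equal, RNA that is made and lost quickly reaches its plateau early, so its share falls with time against stable RNA. Relative to the median locus, 273 long ERVK loci rose with each doubling of time (20.1%, against 15.7% of all loci) and 147 fell (10.8%, against 9.62%), with a median slope of −0.00. Without the 10 min libraries 300 rose and 31 fell, with a median of 0.14, and leaving out 1 library gave 74 to 216 that fell, 74 without KO 10 min B and 91 without WT 10 min B. The slope went with the level. In the 701 long ERVK loci with a level of 10 to 20 the median slope was −0.17, with 40 rising and 124 falling. In the 126 with a level from 100 to 300 it was 0.17, with 67 rising and 4 falling. Over all loci the slope went with the level too. At a level of 10 to 20 the median was −0.01, with 11146 rising and 15024 falling of 137830. From 100 to 300 it was 0.08, with 5967 rising and 1054 falling of 17538. With loci of a level of at least 50 alone, 193 of 322 long ERVK loci rose and 19 fell. Scaled to total repeat reads 212 rose and 226 fell. On the deposited spike-in scale 1313 rose and 0 fell, but there the slope is not relative to the median locus.

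At a level of at least 50 the steepest rise was at chr4:59992141-59996033, at 1.21 ± 0.09 per doubling (limma, adjusted p = 5.83e-07), where mean WT levels were 2.15, 2.17, 8.14 and 11.8 RPM at 10, 20, 40 and 60 min. It was followed by chr16:3212288-3214817 at 1.04 ± 0.08 and chr3:91063118-91065860 at 0.98 ± 0.06 (limma, adjusted p = 8.45e-07 and 1.56e-07). The steepest falls at that level were at chr15:99057475-99060362, at −0.68 ± 0.06, and its neighbour chr15:99052914-99055418, at −0.57 ± 0.06 (limma, adjusted p = 3.12e-06 and 1.33e-05). The first had mean levels of 10.0, 9.23, 4.52 and 3.08 RPM in WT, 9.46, 9.20, 4.37 and 3.07 in KO and 10.6, 13.5, 6.16 and 2.47 in del-cIDR. Another, chr13:62451923-62459308 (7385 bases), was at −0.50 ± 0.06 (limma, adjusted p = 3.71e-05), with 12.6, 12.3, 5.79 and 4.68 RPM in WT and 26.6, 19.4, 14.6 and 8.49 in del-cIDR. This locus also rose in del-cIDR, by 0.96 ± 0.15 (limma, adjusted p = 0.00156). On the deposited scale the slopes of these 3 loci were 0.068, 0.18 and 0.24, beside a median of 0.74 over the long ERVK loci. That scale shifts every slope by the same amount, so these 3 loci still lagged behind the median locus.

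For no long ERVK locus was the slope called different between a mutant and WT. With limma 0 were called for KO, where 101 had an unadjusted p under 0.05, and 0 for del-cIDR, where 157 had (over all loci 0.0% were called for KO, and 0.00523% higher and 0.00392% lower for del-cIDR). Leaving out library A of the 10 min group raised these counts, to 9 for KO without that KO library and to 18 for del-cIDR without that del-cIDR library. In the authors' deposited table the median log2 ratio of 60 to 10 min over the long ERVK loci was 1.96 in WT, 1.5 in KO and 2.28 in del-cIDR, against 1.90, 1.47 and 2.75 over all loci tested.

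At the length threshold, the ERVK loci just inside were chr3:43493774-43495775 and chr8:69834659-69836660, both 2001 bases, and chr18:3368932-3370935 with 2003, at KO differences of 0.72, −0.32 and −0.58. Those just outside were chr12:22171469-22173464 and chr12:23330468-23332463, with 1995 bases each, at −1.05 and −1.13, and chr6:13591596-13593585 with 1989 bases at 0.46. The longest entry with reads, chr11:34498586-34574196, spans 75610 bases and had 182 reads in all. The next longest were chr7:42607570-42616405 with 8835 bases and 88 reads and chr14:51712047-51720518 with 8471 bases and 4 reads. None of these 3 passed the filter.

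Genes of the silencing and m6A pathways were read from the gene table of the same libraries. Of 48 genes in the list 44 were tested, with each library set to its median tested gene. In KO 8 were higher and 10 lower, beside 14.9% higher and 15.9% lower among all 22444 genes tested. The called genes with the largest KO differences were Alkbh5 itself at −0.60 ± 0.06, the KRAB zinc finger gene Zfp819 at 0.59 ± 0.05, the m6A demethylase gene Fto at 0.46 ± 0.06 and the HP1 gamma gene Cbx3 at 0.43 ± 0.05 (limma, adjusted p from 1.23e-06 to 3.25e-05). Trim28 fell by 0.27 and Setdb1 by 0.25 in KO, and by 0.31 and 0.24 in del-cIDR, on the log2 scale (limma, adjusted p of 0.000935, 0.000314, 0.000482 and 0.000537); both were chosen after their values were seen. In del-cIDR 4 genes were higher and 22 lower, beside 10.7 and 15.5% of all genes. The largest were Atrx, a chromatin remodeller gene, at 0.47 ± 0.04, Alkbh5 at −0.46 ± 0.06, the histone H3.3 gene H3f3b at −0.39 ± 0.05 and Smarcad1, another remodeller gene, at −0.38 ± 0.05 (limma, adjusted p from 5.55e-06 to 8.3e-05). On the deposited spike-in scale 8 genes were higher and 0 lower in KO, and 1 was higher and 0 lower in del-cIDR. In 32 of the 44 genes the split between libraries was unclear in at least 1 group, which makes their standard errors too small.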

How the data were processed

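EU-labelled RNA of 24 libraries was deposited as tables of genes and of repeat loci. Per the file headers and values, the authors deposited log2 ratios of 20, 40 or 60 min to 10 min in each genotype, scaled to spike-in reads, with both replicates combined. Per the submitters' processing notes the reads went through HISAT2, SAMtools and Picard with GRCm39; for the counter, strand use, repeat annotation and multiply mapped reads the method is not given in the sources used here. The column prefix ki was taken as Alkbh5 del-cIDR, the remaining genotype. The next entry starts 1 base after the end of the former in 824394 neighbouring pairs and at the end in 33178, so positions were read as 1-based; a length is end minus start.

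Each value equals a log2 ratio of sums of whole reads per spike-in read, times 40000, plus 1. Whole reads were solved from it for each library (Python 3.11.15, numba 0.67.0); 4 repeat values, none of a long ERVK locus, could not be split. In a simulation of WT the sum of a group was right in 100% of loci, and all libraries in 100% where loci averaged 100 reads, in 95.9% for 300 and in 59.5% for 1000. The library with more spike-in reads is called A, the other B. Depth was 3635282 to 22076379 repeat reads per library. Loci that reached a mean level of 10 and had reads in 6 or more libraries were fitted with limma 3.58.1 in R 4.3.3, 1 coefficient per group. In simulated data for KO minus WT (60000 loci), 94 and 98% of 4-fold falls and rises and 24% of 2-fold ones were called, and 4.76% of calls were false. Only 50 loci were changed per size and direction, a smaller share than was called in KO. These rates may therefore not hold for the real loci.

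The loci and gene lists were chosen with earlier results of these data known. Loci named singly were the 6 highest per kb, the 5 largest rises and falls per mutant (adjusted p under 0.05, level of at least 50, 1 sign at all times), the 3 steepest time slopes each way, 3 loci on each side of the length threshold, and the 3 longest. Genes named were the 4 largest called. Length classes, flanks and neighbours were added after the values were seen. Alternatives were other scalings, pseudocounts, filters and lengths, times or libraries left out. No sequence or gene annotation of GRCm39 was used here, so whether a locus lies in a gene was not analysed here.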

Additional observations from a re-analysis of the deposited data

How the results depend on the processing

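More long ERVK loci were called lower than higher in KO under every alternative run, but their median turned from −0.28 to 0.04 on the spike-in scale. The counts of loci called in KO, in del-cIDR and between both (214, 97 and 431) moved by over 1.5 times in these settings: on the deposited spike-in scale to 128, 58 and 271; with loci of 1000 bases or more to 410, 196 and 822; with 4000 or more to 105, 29 and 212; without a filter on low levels to 134 and 52 in KO and del-cIDR; with a pseudocount of 10 to 172 in del-cIDR; and at a level of at least 50 to 196 between the mutants. Some of these settings also changed the number of long ERVK loci tested, from 1358 to 2415 at 1000 bases or more and 765 at 4000 or more. It was 322 at a level of at least 50 and 4663 without a filter. Counts in those settings, also of time slopes, are thus not out of the same number of loci. Leaving out each library in turn gave 157 to 242, 69 to 118 and 345 to 467. Time slopes (420 called) depended most on the setting. On the spike-in scale 1313 were called, but there every slope is shifted by the same amount and is not relative to the median locus. The count was 846 with a pseudocount of 10, 2419 without a filter and 212 at a level of at least 50. It was 764 and 229 at 1000 and 4000 bases, and 324 to 474 without 1 library, of which 74 to 216 fell. Without the 10 min libraries 300 rose and 31 fell. With another total, that of repeat reads, 212 rose and 226 fell.

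The 0 slopes called different from WT became 1 in KO with a pseudocount of 10, and in del-cIDR 5 with a pseudocount of 0.5, 3 with 10, 5 at a level of at least 50 and 2 at 1000 bases. Without 1 library they were 0 to 9 in KO and 0 to 18 in del-cIDR: 5 and 12 without WT 10 min library A, 9 without KO 10 min library A, 18 and 7 without del-cIDR 10 min libraries A and B. The summed level of −0.32 in KO and 0.12 in del-cIDR was −0.013 and 0.26 per spike-in read, and −0.36 to −0.28 and 0.09 to 0.14 without 1 library. The 18 and 26 silencing and m6A genes called in KO and del-cIDR became 8 and 1 on the spike-in scale, and 17 to 19 and 22 to 26 without 1 library. Of 26 differences of named loci, 19 kept their call and direction in all 31 alternatives. The 3 that changed sign are the falling time slopes, at 0.068, 0.18 and 0.24 on the spike-in scale. There every slope is shifted by the same amount, so their lag behind the median locus was unchanged.

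No paired analysis was possible because the columns carry no replicate numbers. Leaving out loci that overlap a gene was not run. In loci with many reads the split between libraries is uncertain; under a level of 10 no locus was tested, and 2-fold changes were mostly missed in simulated data.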
